A study of Mus musculus with 48 samples.

Results

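Vegfa, Flt1, Emcn and Adgrl4 are a growth factor of blood vessels, its decoy-like receptor and a pair of endothelial surface proteins, and their values were taken by symbol from the nCounter panels run on mouse cortex. These 4 members were among the 757 genes of the Glial panel, and 3 of them, all but Adgrl4, were also among the 760 genes of the Neuropathology panel, which shares 251 genes with the first. Both panels were run on RNA of the same 24 mice aged 7.5 months. The study compared 5xFAD mice with 5xFAD Plcg2 KO+/- mice, written Plcg2+/- from here on, with 6 females and 6 males of each. All animals, controls included, carried the 5xFAD transgenes, human disease-linked amyloid precursor protein and presenilin genes driven from a neuronal promoter, so no mouse free of amyloid was compared. The Plcg2+/- mice had in addition 1 knockout allele of Plcg2, which encodes a phospholipase C that microglia use downstream of immune receptors. Plcg2 was on neither table, so the genotype labels could not be checked against its level.

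VEGF-A is a secreted factor that neurons and glia release, above all when oxygen is short, and endothelial cells read it mainly through the receptor VEGFR2, whose signal runs in part through phospholipase C gamma 1, a relative of the Plcg2 product. Flt1 encodes VEGFR1, which binds VEGF-A tightly with weak kinase activity and in its soluble form keeps the ligand away from VEGFR2. Emcn encodes endomucin, a mucin-like glycoprotein on the surface of venous and capillary endothelium, and Adgrl4 (ELTD1) encodes an adhesion G protein-coupled receptor of endothelial cells that responds to angiogenic signals. In brain the last 3 are read mainly from endothelium, while Vegfa comes mainly from other cells.

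All 4 members matched the RefSeq annotation of build GRCm38.p6. Vegfa lies on chromosome 17 from 46016993 to 46032377, Flt1 on chromosome 5 from 147561604 to 147726438, Emcn on chromosome 3 from 137341062 to 137431069 and Adgrl4 on the same chromosome from 151437882 to 151545081. On the Glial panel Flt1 and Adgrl4 moved alike, and Vegfa moved apart from both in females, while in males all 3 fell. The 250 bases before a start of each gene are therefore printed here, so that a reader can set these letters side by side. They are RefSeq windows read 5′ to 3′ on the gene's own strand, chr17:46032378-46032627 minus for Vegfa, chr5:147726012-147726261 minus for Flt1, chr3:137340828-137341077 plus for Emcn and chr3:151437632-151437881 plus for Adgrl4. Capitals mark the GC box GGGCGG in Vegfa and the core letters GGAA of ETS factors, on either strand, in the 3 endothelial genes.
Vegfa: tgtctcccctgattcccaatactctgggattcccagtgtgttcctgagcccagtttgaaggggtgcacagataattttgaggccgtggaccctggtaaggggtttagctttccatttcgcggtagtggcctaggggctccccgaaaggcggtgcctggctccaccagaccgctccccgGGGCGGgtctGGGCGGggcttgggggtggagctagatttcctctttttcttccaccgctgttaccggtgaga
Flt1: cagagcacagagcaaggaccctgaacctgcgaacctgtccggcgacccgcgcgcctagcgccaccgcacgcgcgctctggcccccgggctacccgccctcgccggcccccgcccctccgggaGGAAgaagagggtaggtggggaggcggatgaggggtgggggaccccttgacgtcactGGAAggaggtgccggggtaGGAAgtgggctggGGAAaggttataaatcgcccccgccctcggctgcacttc
Emcn: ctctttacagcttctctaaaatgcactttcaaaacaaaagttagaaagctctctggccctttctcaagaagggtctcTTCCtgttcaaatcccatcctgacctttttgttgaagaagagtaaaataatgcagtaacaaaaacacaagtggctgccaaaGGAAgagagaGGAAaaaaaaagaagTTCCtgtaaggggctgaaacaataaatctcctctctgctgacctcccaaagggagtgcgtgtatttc
Adgrl4: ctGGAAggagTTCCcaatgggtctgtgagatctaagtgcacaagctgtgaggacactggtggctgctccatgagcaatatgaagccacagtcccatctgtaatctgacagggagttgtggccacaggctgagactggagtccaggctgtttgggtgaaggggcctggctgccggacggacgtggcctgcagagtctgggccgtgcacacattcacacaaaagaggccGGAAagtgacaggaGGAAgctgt

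The ETS core, which ETS transcription factors read in many endothelial genes, occurred 4 times in each of the Flt1, Emcn and Adgrl4 windows, and 33.4% of 32851 mouse promoter windows of the table held at least that many. Vegfa's window held 6 such cores, left in lower case, a number that 8.69% of windows reached. Both GC boxes of the Vegfa window, letters read by Sp factors, stood in 1 short stretch. Of all windows 32.7% held at least 1 and 16.7% at least 2. Flt1 had 3 GC boxes on either strand, a number that 8.47% of windows reached. Its window was 70.4% G and C, against 40.8% in Emcn, which had no GC box. Flt1 alone of the 4 held the cyclic AMP response letters TGACGTCA, found in 1.55% of windows, and the TATA letters TATAAA, found in 12.4%. ACGTG, the core of the hypoxia response element, was found once, in Adgrl4, and 16.6% of windows held it. Each motif was searched on both strands, sites of different motifs may overlap, and a match is a description of letters, not a shown site. For Vegfa the table gave 2 windows, of which the one at the gene's outer edge is shown, and the Flt1 start used by the table lies 427 bases inside the annotated outer edge of the gene, and that of Emcn 16 bases inside.

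Whole molecule counts recovered from the values summed to between 953461 and 1239109 in 5xFAD females and to between 1773331 and 1897264 in Plcg2+/- females on the Glial panel, with no overlap of the female genotypes in depth. The Neuropathology totals of the same females also stood apart, at 528033 to 651615 against 1220459 to 1603006. Males overlapped on both panels. The genotypes carry separate series of animal numbers, so cohort or run and genotype cannot be told apart. A pair of Plcg2+/- mice stood apart from their group. Of the 308 genes called in males on the Glial panel, male 3 lay nearer to the 5xFAD mean than to the mean of its own group in 72.1%, and in 75.9% of 431 genes on the Neuropathology panel, against at most 17.2% for any other Plcg2+/- male. Female 12 did so in 31.3% of 415 and 37.4% of 412 genes, against at most 7.04% for any other Plcg2+/- female, so member results are also given without both mice.

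Across the genotypes, Vegfa fell in Plcg2+/- cortex in both sexes, Emcn fell in males, and Flt1 and Adgrl4 rose in females and fell in males on the Glial panel. Averaged over the sexes, Vegfa and Emcn were called, that is, had an adjusted p under 0.05 in limma's moderated test over all genes of the panel, and Flt1 and Adgrl4 were not. The background for that count is high, since 60.5% of the 757 Glial genes were called, 26.7% as lower. In females 3 of the 4 members were called, Vegfa as lower and Flt1 and Adgrl4 as higher, where 54.8% of all genes were called, 20.3% lower and 34.5% higher. In males all 4 members were called as lower, where 40.7% of genes were called and 23.5% were lower. The genotype difference itself differed between the sexes for all 4 members, each less negative or more positive in females, while 21.9% of genes passed that interaction test and 15.2% did so in this direction. That direction of the panel depends on scaling, since the 115 called genes above 0 and 51 below became 78 and 109 when each mouse was centred on its median, and 79 and 97 under quantile normalization. Centring also moved the split of genotype calls from 261 higher and 154 lower to 221 and 205 in females and from 130 and 178 to 185 and 149 in males. Flt1 and Adgrl4 were 2 of the 18 Glial genes, 2.38% of the panel, that were called higher in females and lower in males. Because whole cortex was measured, fewer cells of a type and less RNA per cell cannot be told apart in any of these values.

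**Figure D1:**
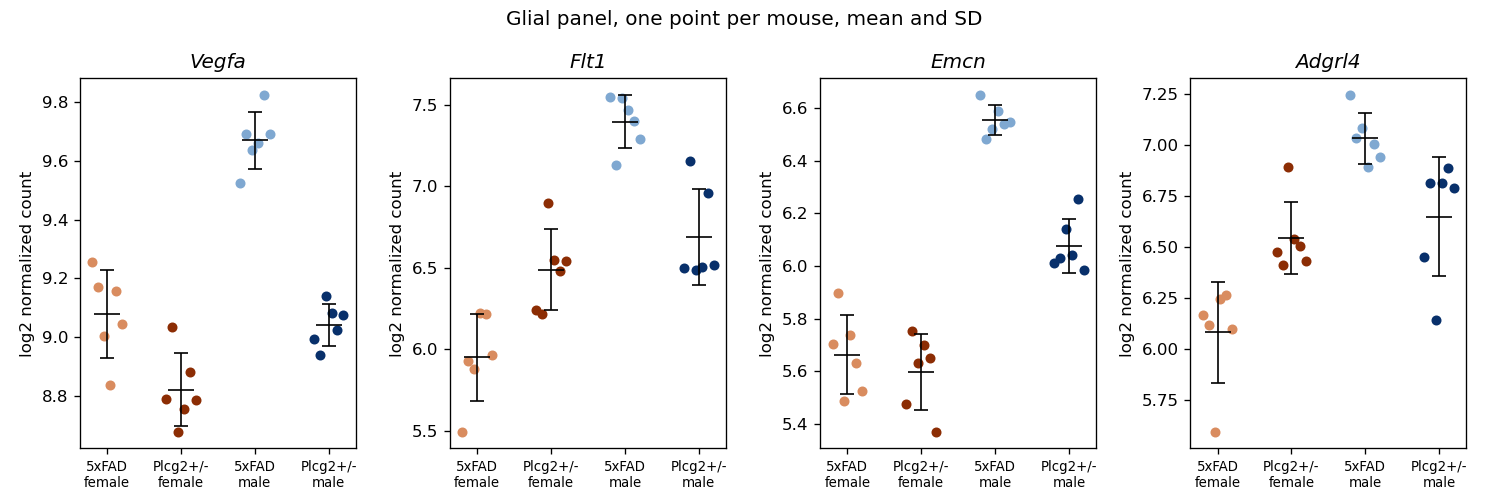
Log2 normalized counts of the 4 members on the Glial panel (vertical axes, each with its own range) in the 4 groups of 6 mice. Points are mice and bars are the mean and SD. Vegfa and Emcn of Plcg2+/- males lie wholly below 5xFAD males, and Adgrl4 of Plcg2+/- mice lies above the controls in females and below them in males.

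Vegfa, the ligand, was read from 386 to 847 recovered counts per mouse on the Glial panel. In females its log2 normalized count had a lowest, median and highest value of 8.84, 9.10 and 9.26 in 5xFAD mice and of 8.68, 8.79 and 9.04 in Plcg2+/- mice. The female groups overlapped, with 2 Plcg2+/- mice inside the control range, although all 6 lay below the control mean. In 5xFAD males the values were 9.52, 9.67 and 9.82, and in Plcg2+/- males 8.94, 9.05 and 9.14, so the male groups did not overlap, a pattern with Plcg2+/- below that 7.13% of Glial genes showed. The genotype difference was -0.26 ± 0.067 (SE) in females (1.19-fold lower, adjusted p = 0.00273) and -0.63 ± 0.067 in males (1.54-fold lower, adjusted p = 2.48e-06). Being called lower in both sexes was shared by 11.6% of the panel. In males no gene of the 757 had a smaller p, and over both sexes Vegfa ranked 20 at -0.44 ± 0.047 (adjusted p = 1.25e-07). The female minus male difference of 0.37 ± 0.095 passed the test (adjusted p = 0.00733), but with each mouse centred on its own median it was 0.27 (adjusted p = 0.0755), and under quantile normalization 0.23 (adjusted p = 0.104). Ordered by group mean, 5xFAD males stood highest at 9.67 ± 0.097 (SD, n = 6), followed by 5xFAD females at 9.08 ± 0.15 and Plcg2+/- males at 9.04 ± 0.071, whose ranges overlapped, and then by Plcg2+/- females at 8.82 ± 0.12.

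The Neuropathology panel gave a separate count of Vegfa in the same mice. Its values in females were 7.86, 8.06 and 8.09 in 5xFAD mice and 7.42, 7.54 and 8.05 in Plcg2+/- mice, where only female 12 lay within the control range. In males they were 8.71, 8.78 and 8.97 against 7.44, 7.98 and 8.59, again without overlap, and the highest Plcg2+/- value was that of male 3. Non-overlap with Plcg2+/- below was found for 8.68% of the 760 genes in males. The difference was -0.42 ± 0.13 in females (adjusted p = 0.0102) and -0.86 ± 0.13 in males (1.81-fold lower, adjusted p = 2.73e-05), on a panel where 54.2% of all genes were called in females, 18.9% of all genes as lower, and 56.7% in males, 38.3% of all genes as lower. Vegfa was called lower in both sexes here too, like 15.8% of the panel. It was lower on both panels in females, as were 12.4% of the 251 shared genes, and in males, as were 23.9%. Its sex difference on this panel, 0.44 ± 0.18, did not pass (adjusted p = 0.0844, where 19.1% of genes passed), and without male 3 it was 0.57 (adjusted p = 0.00436). Without female 12 and male 3 the difference over both sexes moved from -0.64 to -0.74 on this panel and from -0.44 to -0.47 on the Glial panel.

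**Figure D2:**
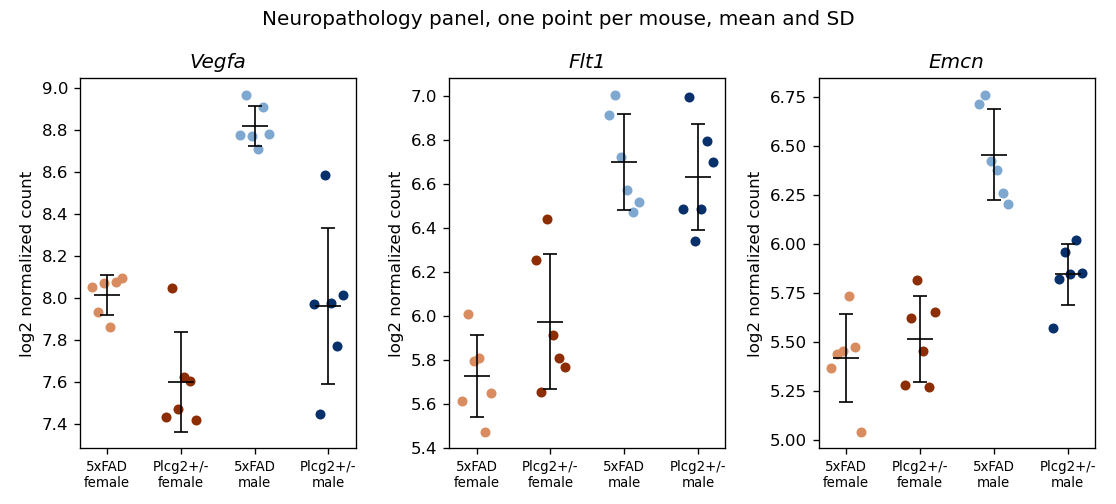
Log2 normalized counts of the 3 members on the Neuropathology panel (vertical axes, each with its own range) in the same mice, with points, means and SDs drawn as for the Glial panel. The Plcg2+/- mice with the highest Vegfa, at 8.05 in females and 8.59 in males, stand within the 5xFAD range in females and just below it in males, and the male groups of Flt1 overlap.

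Flt1, the VEGF receptor with the largest difference between the sexes among the members, went in opposite directions on the Glial panel. In females the lowest, median and highest values were 5.49, 5.95 and 6.22 in 5xFAD mice and 6.22, 6.51 and 6.90 in Plcg2+/- mice, so the groups met at their edges with 1 Plcg2+/- mouse inside the control range. In males they were 7.13, 7.43 and 7.55 in 5xFAD mice and 6.49, 6.51 and 7.16 in Plcg2+/- mice, again with 1 mouse inside the control range. All 6 Plcg2+/- females lay above the female control mean and all 6 Plcg2+/- males below the male one. The difference was 0.54 ± 0.14 in females (1.45-fold higher, adjusted p = 0.00223) and -0.71 ± 0.14 in males (1.64-fold lower, adjusted p = 0.000574). Their difference of 1.25 ± 0.19 had rank 7 by p among the 757 interaction tests (adjusted p = 0.000181). Over both sexes these cancelled to -0.09 ± 0.097 (adjusted p = 0.464). Group means ran from 7.40 ± 0.16 in 5xFAD males through 6.69 ± 0.29 in Plcg2+/- males and 6.49 ± 0.25 in Plcg2+/- females, whose ranges overlapped, to 5.95 ± 0.27 in 5xFAD females. In the last group Flt1 rested on 32 to 63 recovered counts, for which counting alone gives an SD of 0.20 on the log2 scale.

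The Flt1 differences did not pass the test on the Neuropathology panel. Values in females were 5.47, 5.72 and 6.01 in 5xFAD mice and 5.65, 5.86 and 6.44 in Plcg2+/- mice, with 4 of the latter inside the control range. In males they were 6.47, 6.65 and 7.004 against 6.34, 6.59 and 6.99, with 5 of 6 Plcg2+/- mice inside that range. The difference was 0.25 ± 0.14 in females (adjusted p = 0.124) and -0.07 ± 0.14 in males (adjusted p = 0.70), and median centring turned the male value to 0.16. Leaving out female 12 and male 3 gave 0.31 in females (adjusted p = 0.0448). The interaction was 0.32 ± 0.19 (adjusted p = 0.228). Being called in males on the Glial panel alone was shared by 8.37% of the 251 genes, in females by 20.7% and for the interaction by 15.1%. Set against each other within the same mice, the male difference was more negative on the Glial panel by 0.64 (exact permutation p = 0.00866 over all relabellings of the males, 0.0519 adjusted over 6 such comparisons), and by 0.86 after each mouse was centred on the median of the shared genes (exact p = 0.00433, adjusted p = 0.026). The other 5 of these comparisons between panels, all those of Vegfa and Emcn and Flt1 in females, had adjusted p of at least 0.198. Which stretch of the Flt1 transcript each panel reads is not stated in the labels or file headers.

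**Figure D3:**
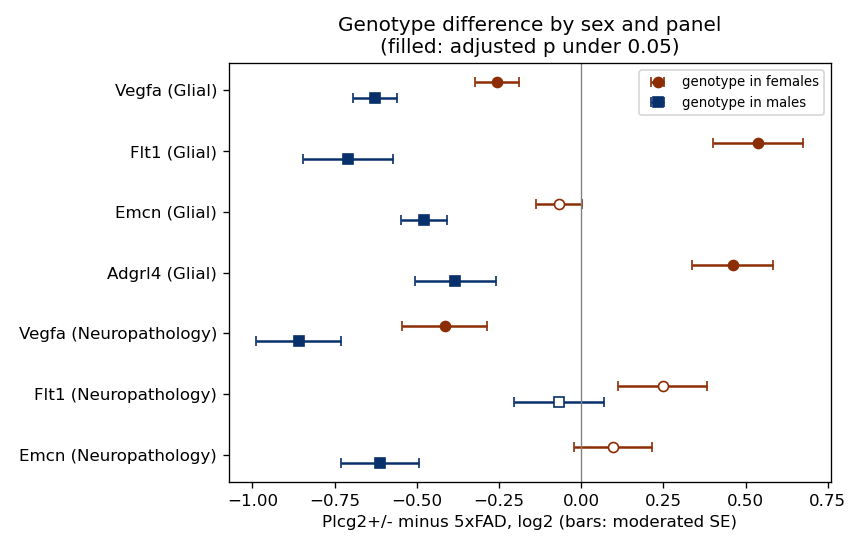
Genotype difference (Plcg2+/- minus 5xFAD, log2, horizontal axis) of each member by panel, with moderated SE as bars, in females (circles) and males (squares). Filled symbols have an adjusted p under 0.05. Vegfa is below 0 in both sexes on both panels, Emcn in males on both, and Flt1 differs most between the sexes on the Glial panel.

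Emcn, the endothelial mucin, fell in males on both panels. On the Glial panel the female values were 5.49, 5.67 and 5.90 in 5xFAD mice and 5.37, 5.64 and 5.75 in Plcg2+/- mice, with 4 of the latter inside the control range. In males the values were 6.48, 6.54 and 6.65 in 5xFAD mice and 5.98, 6.03 and 6.25 in Plcg2+/- mice, so the male groups lay apart, with Plcg2+/- below as for 7.13% of Glial genes. The difference in males was -0.48 ± 0.070 (1.39-fold lower, adjusted p = 4.74e-05), rank 11 of 757 by p. In females it was -0.07 ± 0.070 (adjusted p = 0.434), and under quantile normalization -0.24 (adjusted p = 0.015). The female minus male difference was 0.41 ± 0.099 (adjusted p = 0.00484), but under quantile normalization 0.20 (adjusted p = 0.21). By mean, 5xFAD males stood at 6.55 ± 0.058 and Plcg2+/- males at 6.08 ± 0.10, above both female groups at 5.66 ± 0.15 and 5.60 ± 0.14, which overlapped.

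The Neuropathology values of Emcn repeated this split between the sexes. They were 5.04, 5.45 and 5.74 in 5xFAD females and 5.27, 5.54 and 5.82 in Plcg2+/- females, which overlapped. In males they were 6.21, 6.40 and 6.76 against 5.57, 5.85 and 6.02, with no overlap, and 8.68% of the panel's genes lay apart in this direction. The difference was 0.10 ± 0.12 in females (adjusted p = 0.495) and -0.61 ± 0.12 in males (1.53-fold lower, adjusted p = 0.00028). Emcn was thus called lower in males on both panels, as were 23.9% of the shared genes. Its interaction of 0.71 ± 0.17 passed as well (adjusted p = 0.0063, where 17.1% of genes passed in this direction and 130 called genes were above 0 and 15 below), and an interaction above 0 called on both panels was found for 7.17% of the shared genes. With median centring that value was 0.42 (adjusted p = 0.0896) and with quantile normalization 0.45 (adjusted p = 0.064). The direction of the panel's interaction calls turned with centring, to 21 above 0 and 122 below, and the median over all genes went from 0.22 to -0.067. Over both sexes Emcn was lower by -0.27 ± 0.050 on the Glial panel (adjusted p = 7.99e-05) and by -0.26 ± 0.084 on the Neuropathology panel (adjusted p = 0.0094), where 71.6% of all genes were called, 36.1% of all genes as lower. Emcn rested on 37 to 104 recovered counts per mouse on the Glial panel, and its SD of 0.058 in 5xFAD males was below the 0.15 that counting alone gives.

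Adgrl4, the adhesion receptor, was measured on the Glial panel alone and separated the genotypes without overlap in both sexes, in opposite directions. In females the values were 5.60, 6.14 and 6.27 in 5xFAD mice and 6.41, 6.49 and 6.89 in Plcg2+/- mice. Every Plcg2+/- female was above every control, as for 15.2% of the 757 genes. In 5xFAD females Adgrl4 rested on 42 to 64 recovered counts, for which counting alone gives an SD of 0.19 on the log2 scale. In males the values were 6.89, 7.02 and 7.24 in 5xFAD mice and 6.14, 6.80 and 6.89 in Plcg2+/- mice. Here the Plcg2+/- mice were all below, as for 7.13% of the 757 genes, though the groups nearly touched. The difference was 0.46 ± 0.12 in females (1.38-fold higher, adjusted p = 0.0030) and -0.38 ± 0.12 in males (1.30-fold lower, adjusted p = 0.0169). Its female minus male difference was 0.84 ± 0.17 (adjusted p = 0.0016). Averaged over the sexes the value was 0.04 ± 0.087 (adjusted p = 0.712), and without 5xFAD female 1190, the lowest mouse, it was -0.0094. Without female 12 and male 3 the male difference was -0.28 (adjusted p = 0.037). The means were ordered 7.03 ± 0.12 in 5xFAD males, 6.65 ± 0.29 in Plcg2+/- males, 6.54 ± 0.18 in Plcg2+/- females and 6.08 ± 0.25 in 5xFAD females, with overlapping ranges for both Plcg2+/- groups.

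Members were also set against each other inside each mouse, since a log2 ratio of 2 genes does not move with a factor that scales the whole mouse. Probes differ in efficiency, so the ratios are read only between groups, not as relative amounts. Vegfa minus Adgrl4 fell in Plcg2+/- mice by 0.48 (exact permutation within sex over 853776 relabellings, p = 0.000766, adjusted over 6 pairs 0.0046). This was -0.72 in females (exact adjusted p = 0.00866) and -0.24 in males (exact adjusted p = 0.224). Emcn minus Adgrl4 fell by 0.31 (exact adjusted p = 0.016), at -0.53 in females (exact adjusted p = 0.00866) and -0.095 in males (exact adjusted p = 0.623). Vegfa minus Emcn fell by 0.17 (exact adjusted p = 0.0213), at -0.19 in females and -0.15 in males, neither past the threshold alone (exact adjusted p = 0.101 and 0.199). In females the ratio of ligand to receptor, Vegfa minus Flt1, was between 2.62 and 3.76 in 5xFAD mice and between 1.78 and 2.82 in Plcg2+/- mice, with a difference of -0.79 (exact p = 0.00433, adjusted p = 0.00866). In males the same ratio was between 1.98 and 2.56 in 5xFAD mice and between 1.78 and 2.65 in Plcg2+/- mice, with a difference of 0.08 (exact adjusted p = 0.636). Over both sexes it did not pass (-0.36, exact p = 0.0392, adjusted p = 0.0588), and without female 12 and male 3 it was -0.43 (exact adjusted p = 0.0261). Flt1 minus Emcn rose by 0.60 in females (exact adjusted p = 0.00974) and was -0.23 in males (exact adjusted p = 0.199). Flt1 and Adgrl4, both higher in females and lower in males, had a ratio difference of -0.13 (exact adjusted p = 0.242). Whether ratio differences differ between the sexes was not tested as such. The smallest p that 6 mice against 6 allow in 1 sex is 0.0022.

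After the group means were removed, Vegfa and Flt1 ran opposite to each other among the 24 mice. Their values minus group means had a Pearson r of -0.62 (100000 permutations within groups, p = 0.00263, adjusted over 6 pairs 0.0158) and a Spearman rho of -0.61 (p = 0.00346, adjusted 0.0208). Without the 2 mice farthest from the median Vegfa value r was -0.55, and without female 12 and male 3 it was -0.56 (adjusted p = 0.0596). Leaving out both these mice and the 2 farthest gave -0.38. With median centring r was -0.62 (adjusted p = 0.0202) and rho -0.52 (adjusted p = 0.0955) by the same permutations. The median r with all Glial genes was -0.15 for Vegfa and 0.20 for Flt1, and after centring -0.02 and 0.06. Flt1 and Adgrl4 ran together at r = 0.50 (p = 0.0362, adjusted 0.108) and rho = 0.55 (p = 0.0104, adjusted 0.0311), with r = 0.59 without the 2 farthest mice. The other 4 pairs had r between -0.26 and 0.25, with adjusted p of at least 0.437. All values of a mouse share its library, depth and scaling factor. Between panels, Vegfa of the same mouse had r = 0.58 (p = 0.00031, adjusted over 3 genes 0.00093; rho = 0.56, p = 0.00669, adjusted 0.0201; r = 0.47 without the 2 farthest mice), Flt1 r = 0.39 (p = 0.0803, adjusted 0.12; rho = 0.33, p = 0.141; r = 0.27) and Emcn r = 0.27 (p = 0.235, adjusted 0.235; rho = 0.25, p = 0.27; r = 0.42). The median r over the 251 shared genes was 0.577.

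**Figure D4:**
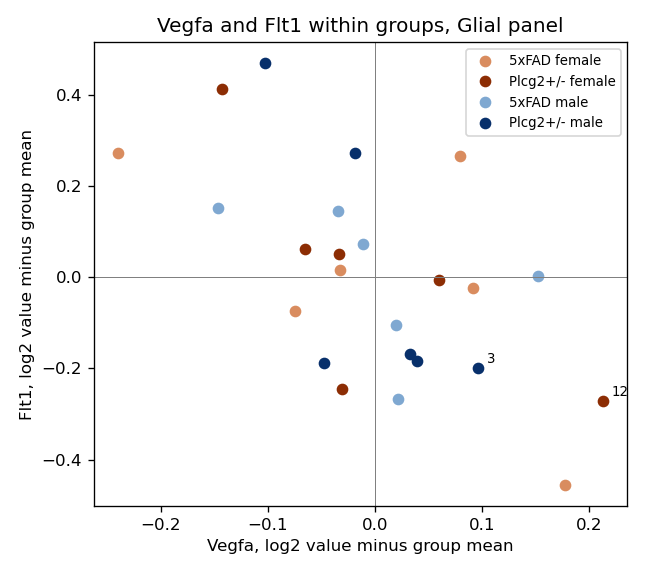
Vegfa (horizontal axis) against Flt1 (vertical axis) on the Glial panel, each as log2 value minus the mean of its group, with 1 point per mouse coloured by group and Plcg2+/- female 12 and male 3 numbered. Mice with more Vegfa than their group tend to have less Flt1, at r = -0.62.

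The genes whose values, minus group means, ran most like each member over the 24 mice differed between members. Adgrl4 was followed most closely by Pecam1 (r = 0.70), Itm2a (r = 0.68) and Esam (r = 0.67), which are endothelial genes, Pecam1 and Esam being adhesion proteins of endothelial junctions. Nearest to Flt1 were Grin2a (r = 0.79), a glutamate receptor subunit, Bace1 (r = 0.69), the beta-secretase, and Chrnb2 (r = 0.68), an acetylcholine receptor subunit. Emcn stood nearest to Camk2a (r = 0.78), a synaptic kinase of excitatory neurons, Rab6b (r = 0.72) and Tln2 (r = 0.66). Vegfa stood nearest to Ncam2 (r = 0.65), Myo5a (r = 0.60) and Csnk2a1 (r = 0.60). The 3 nearest of Adgrl4 were on the endothelial list, but without female 12 and male 3 only Pecam1 of its 3 nearest was. Without these mice, Pecam1 (r = 0.81), Grin2a (r = 0.77) and Camk2a (r = 0.77) remained first for Adgrl4, Flt1 and Emcn. By the same measure the nearest on the Neuropathology panel were Zfp24, Ubqln1 and Cul3 for Vegfa (each r = 0.92, and Zfp24 at 0.77 without both mice), Itgam (r = 0.76), Slc1a2 and Trpm2 for Flt1, and Gga1 (r = 0.60), Slc18a3 and Gabrr1 for Emcn.

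Among 37 endothelial marker genes 14 were on the Glial panel, Flt1, Emcn and Adgrl4 among them. In females 4 of the 14 rose, where 34.5% of all genes did, and 1 fell, with a median difference of 0.21 against 0.08 over all genes. In males none rose and 8 fell, where 23.5% of all genes fell, with a median of -0.31 against -0.0017 over all genes. For 7 of the 14 the difference was less negative or more positive in females by the interaction test, where 15.2% of all genes were, and for none was it the reverse. With median centring the count was 6 and with quantile normalization 4, again with none the reverse. Of all 757 genes 78 and 79 were then called in this direction. Other cell types had such genes too. On the deposited scale the interaction was called above 0 for 3 of 6 oligodendrocyte and 3 of 9 neuron genes. It was so for 2 of 7 astrocyte, 2 of 10 microglia and 1 of 4 precursor genes, with none below 0. The endothelial list counts are not independent of the members. On the deposited scale Flt1 and Adgrl4 are among the 4 that rose in females. All 3 members are among the 8 that fell in males and the 7 of the interaction test. Esam, the junction protein, moved as Flt1 and Adgrl4 did, at 0.34 ± 0.10 in females (adjusted p = 0.00659) and -0.34 ± 0.10 in males (adjusted p = 0.012), and these 3 were the only ones of the list called in opposite directions. Cldn5, the main claudin of the blood-brain barrier, instead fell in both sexes, at -0.62 ± 0.15 in females (adjusted p = 0.00115) and -0.66 ± 0.15 in males (adjusted p = 0.00158). Tjp1, the junction scaffold ZO-1, rose over both sexes by 0.31 ± 0.044 (adjusted p = 4.88e-06), at 0.51 in females and 0.11 in males (adjusted p = 0.162). Pecam1 fell by 0.25 ± 0.081 (adjusted p = 0.0114), at -0.09 in females (adjusted p = 0.508) and -0.40 in males. The summed level of the 11 endothelial genes other than the members was 3692 to 4031 normalized counts in 5xFAD females and 3462 to 4215 in Plcg2+/- females, and 4702 to 5496 against 3943 to 4945 in males. Cd34, Tjp1 and Itm2a weigh most in this sum, with log2 means of 10.50, 9.49 and 9.25 in 5xFAD females. It can hide opposite moves, as of Tjp1 and Cldn5 in females. Neither panel holds any count of 0, so absence of an endothelial marker could not be read from zeros.

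The Neuropathology panel held 14 genes of the same endothelial list, with Flt1 and Emcn among them. There 5 rose and 3 fell in females, where 35.3% of all genes rose and 18.9% fell, so the share of risers is that of the panel. In males none rose and 8 fell, where 38.3% of all genes fell, and 7 had an interaction above 0 with none below, where 17.1% of all genes did. These counts rest on the scale, as do those of the panel. With median centring 3 of the 14 fell in males, where 172 of all 760 genes did. An interaction above 0 was then called for 2 of the 14 with 1 below, and for 21 of all genes with 122 below. As deposited, the member Emcn is among the 8 that fell in males and the 7 of the interaction, while Flt1 was called in none of these comparisons. On that scale 2 of 4 oligodendrocyte and 2 of 6 astrocyte genes also had an interaction above 0. No microglia, neuron, precursor or mural gene had one. The median difference of the endothelial list was 0.16 in females and -0.25 in males, against 0.08 and -0.06 over all genes. Tie1, an endothelial receptor of the angiopoietin system, was the gene of this panel's list called in opposite directions, at 0.61 ± 0.16 in females (adjusted p = 0.00277) and -0.54 ± 0.16 in males (adjusted p = 0.00579). On the Glial panel Tie1 was called in neither sex (0.20, adjusted p = 0.239, and -0.32, adjusted p = 0.0685), and Esam was not called in males on the Neuropathology panel (-0.18, adjusted p = 0.0821). Both were named after their values were seen. Cldn5 fell by 0.77 ± 0.098 over both sexes (adjusted p = 1.23e-06), Egfl7, a secreted endothelial protein, by 0.35 ± 0.049 (adjusted p = 3.23e-06), Cd34 by 0.22 ± 0.048 (adjusted p = 0.000411) and Pecam1 by 0.32 ± 0.084 (adjusted p = 0.00195), the last at -0.059 in females (adjusted p = 0.678) and -0.59 in males. Of the activated endothelium list, Angpt2, an antagonist of the Tie2 receptor, had a difference of 0.66 in females (adjusted p = 0.0114) and 0.035 in males (adjusted p = 0.904), and of 0.35 over both (adjusted p = 0.0403), and Icam1, the other gene measured, was not called. Angpt2 was read near the floor, with group means of 3.40 to 4.29. In females 1 of the 2 genes stayed called higher with median centring and with voom on recovered counts. Under quantile normalization no gene of the list was called higher in females or over both sexes, and 1 was called lower over both. The summed level of 12 endothelial genes without members was 3060 to 3376 in 5xFAD females and 2620 to 3106 in Plcg2+/- females, and 4013 to 4990 against 3171 to 3776 in males. Cd34 and Egfl7 weigh most in this sum, with log2 means of 10.86 and 9.24 in 5xFAD females.

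**Figure D5:**
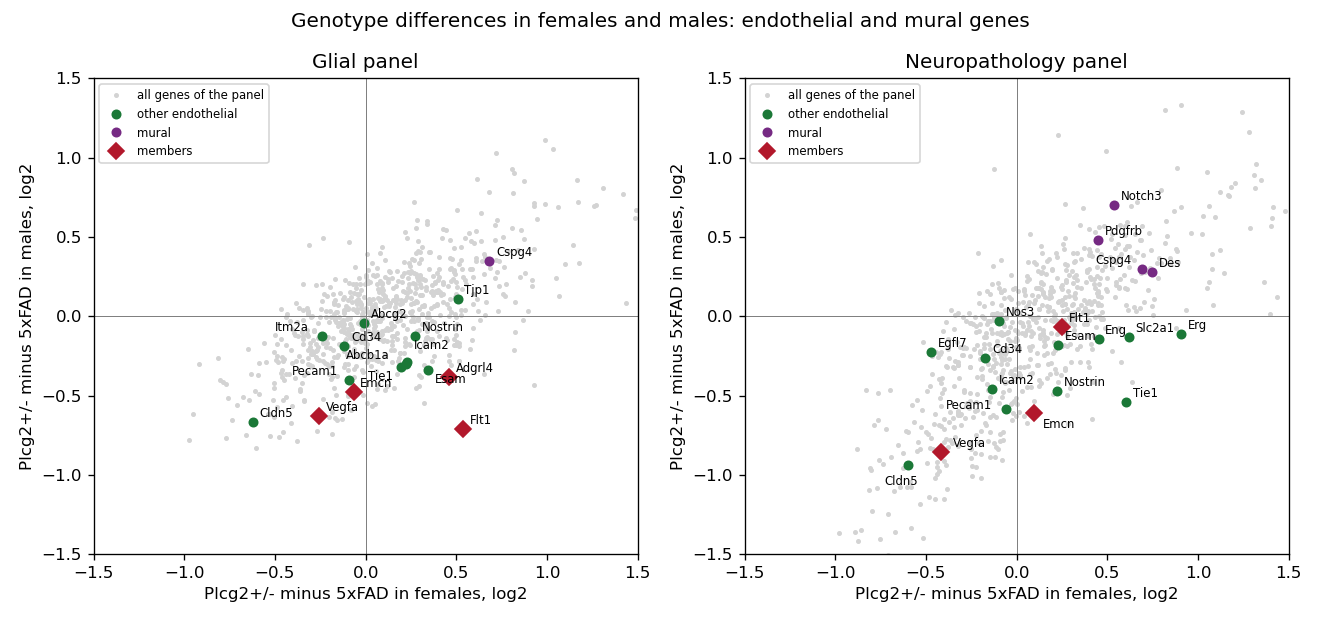
Genotype difference in females (horizontal axis) and in males (vertical axis), log2, for all genes of each panel (grey), the members (red diamonds), other endothelial genes (green) and mural genes (purple). Axes stop at 1.5, outside which 5 Glial and 10 Neuropathology genes lie. On the deposited scale shown, 7 of 14 endothelial genes of each panel, members among them, were called with a higher difference in females than in males. This is the direction toward the lower right, called for 115 of all 757 Glial and 130 of all 760 Neuropathology genes. With median centring it was called for 6 and 2 endothelial genes, and for 78 and 21 of all genes. Mural genes lie above 0 in both sexes.

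Mural genes mark pericytes and smooth muscle around the endothelium, and those measured were higher in Plcg2+/- mice. Cspg4, the NG2 proteoglycan that precursor cells of oligodendrocytes carry too, was the 1 mural gene of the Glial panel and rose over both sexes by 0.52 ± 0.092 (adjusted p = 6.39e-05). On the Neuropathology panel all 4 mural genes were called higher when the sexes were averaged, where 35.5% of all genes were. All 4 were called higher in females, where 35.3% of all genes were, and 2, Notch3 and Pdgfrb, in males, where 18.4% were. Cspg4 (adjusted p = 0.108) and Des (adjusted p = 0.325) were not called in males. These counts depend on the scale. In females 3 were called with median centring, 3 with voom on recovered counts and 1 with quantile normalization, and in males 3 with each. Of all 760 genes, in the same order, 207, 267 and 179 were called higher in females. In males 307, 272 and 234 were. Des was read near the floor, with group means of 3.60 to 4.34. Notch3 rose by 0.62 ± 0.11 (adjusted p = 7.53e-05), Cspg4 by 0.49 ± 0.11 (adjusted p = 0.000562), Des by 0.51 ± 0.17 (adjusted p = 0.00987) and Pdgfrb, the pericyte receptor for platelet-derived growth factor, by 0.46 ± 0.12 (adjusted p = 0.00231). Their summed level was 197 to 260 in 5xFAD females and 261 to 423 in Plcg2+/- females, and it overlapped in males, at 321 to 453 and 304 to 581. The female ranges nearly touched, and 16.2% of the panel's genes lay apart in this direction in females. Cspg4, not a gene of mural cells alone, weighs most in the sum. By itself it was at 128 to 175 in 5xFAD females and 162 to 277 in Plcg2+/- females.

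In the VEGF pathway, 17 of 62 listed genes were on the Glial panel, with Vegfa and Flt1 among them. Over both sexes 3 rose and 7 fell, Vegfa among the latter, where 33.8% of all genes rose and 26.7% fell. Their median was -0.08 against 0.04 over all genes. Besides Vegfa and Flt1 no VEGF ligand or receptor was on that panel. The named genes further down the pathway were Mapk14, the stress kinase p38 alpha, which rose by 0.31 (adjusted p = 6.8e-06), Ptgs2, the inducible cyclooxygenase, which rose by 0.42 (adjusted p = 0.000214), and Cdc42, a GTPase of the cytoskeleton, which fell in females by 0.30 (adjusted p = 7.24e-06) and was at -0.0017 in males (adjusted p = 0.977), with the interaction called (adjusted p = 0.00167). On the Neuropathology panel 31 of the 62 were measured, and 5 rose and 17 fell over both sexes, Vegfa among the latter. There 35.5% of all genes rose and 36.1% fell, and the median was -0.15 against -0.01 over all genes. Hras, which relays receptor signals to the MAP kinases, fell by 0.62 (adjusted p = 3.07e-10), Ppp3ca, the calcineurin catalytic subunit, by 0.61 (adjusted p = 1.1e-07), and Ptgs2 again rose, by 0.43 (adjusted p = 2.54e-05). In males 15 of the 31 fell and 1 rose, where 38.3% of all genes fell and 18.4% rose. With median centring 10 of the 31 fell and 8 rose, where 172 of all 760 genes fell and 307 rose. In females 8 fell and 7 rose, where 18.9% of all genes fell and 35.3% rose. Flt4, the receptor for VEGF-C and VEGF-D, was the other VEGF receptor measured, and it rose by 0.57 ± 0.16 in females (adjusted p = 0.00457) and was -0.29 ± 0.16 in males (adjusted p = 0.123), with an interaction of 0.86 (adjusted p = 0.0103). Many of these signalling genes are expressed by every cell type of the cortex.

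Genes of the oxygen-sensing system were read because hypoxia is the best-known inducer of Vegfa. Of 25 listed, 5 were on the Glial panel, where 33.8% of all genes rose over both sexes and 26.7% fell. The 3 that fell were Rbx1, Cul2 and Eloc, parts of the ubiquitin ligase that removes the hypoxia-inducible factor among other proteins. They fell by 0.48, 0.65 and 0.71 (adjusted p = 1.75e-09, 1.63e-06 and 2.3e-06). Hmox1, heme oxygenase 1, which many stresses induce, rose by 0.49 (adjusted p = 4.88e-06). The other panel held 8 of the list, of which 5 rose and 2 fell, where 35.5% of all genes rose and 36.1% fell. Hmox1 rose there too, by 0.53 (adjusted p = 1.1e-07), as did Ep300, a coactivator, by 0.21 (adjusted p = 0.00011), at 0.39 in females and 0.031 in males (adjusted p = 0.667). Bnip3, a hypoxia target of mitochondria, fell by 0.88 (adjusted p = 1.5e-07) and Cul2 by 0.68 (adjusted p = 1.18e-05). On that panel, those that rose and those that fell included both regulators and targets, so the list gave no single direction.

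Marker lists of the other cell types of cortex were counted over both sexes on the Glial panel. Of all genes there 33.8% rose and 26.7% fell, and the median was 0.04. Of 7 astrocyte genes 3 rose and 1 fell (median 0.11, smallest p S100b), of 10 microglia genes 2 rose and 3 fell (0.05, Aif1), of 6 oligodendrocyte genes 1 rose and 1 fell (0.05, Mbp), all 4 precursor genes rose (0.45, Gpr17), and of 9 neuron genes 5 rose and 1 fell (0.14, Gad1). Pdgfra, the 1 perivascular fibroblast gene measured and also a precursor gene, rose by 0.38. The summed level of the neuron genes was 43760 to 52783 normalized counts in 5xFAD females, 56990 to 63481 in Plcg2+/- females, 68824 to 71735 in 5xFAD males and 67316 to 77907 in Plcg2+/- males. It was lowest in the group with the lowest Flt1, Adgrl4 and depth, and its part in the member results was not tested. On the Neuropathology panel 35.5% of all genes rose over both sexes and 36.1% fell. There 2 of 6 astrocyte genes rose and 2 fell (median 0.13, smallest p Aldh1l1), 3 of 9 microglia genes rose and 3 fell (-0.06, Cx3cr1), 1 of 4 oligodendrocyte genes rose and 2 fell (0.02, Mbp), the 1 precursor gene, Cspg4, rose, and of 5 neuron genes 2 rose and 2 fell (0.09, Gad1).

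All members were lower in females than in males when genotypes were averaged. The differences on the Glial panel were -0.41 ± 0.047 for Vegfa, -0.82 ± 0.097 for Flt1, -0.68 ± 0.050 for Emcn and -0.53 ± 0.087 for Adgrl4, with adjusted p between 3.39e-10 and 1.14e-05. These need the background, since 81.2% of the panel was called for sex, 76.2% lower in females, and the median over all genes was -0.27. With each mouse centred on its median, the shift of all genes was -0.05, the calls went from 38 higher and 577 lower in females to 106 and 209, and the members stood at -0.19, -0.60, -0.47 and -0.31 in the same order, all still called, with adjusted p of at most 0.00977. Emcn had rank 4 by p on the deposited scale. On the Neuropathology panel, where 88.2% were called, 87.2% lower in females, and the median was -0.43 (7 higher and 663 lower, and 76 and 100 after centring), Vegfa was at -0.58, Flt1 at -0.82 and Emcn at -0.68. Centring there left -0.16 for Vegfa (adjusted p = 0.108), -0.40 for Flt1 (adjusted p = 0.0103) and -0.26 for Emcn (adjusted p = 0.0249). Centring also moved the genotype differences in males on that panel, where the mice had median log2 values of 9.03 to 9.13 in 5xFAD and 8.75 to 9.14 in Plcg2+/- mice. The median genotype difference in males over all genes was -0.06 as deposited and 0.16 after centring, and the calls went from 140 higher and 291 lower to 307 and 172, and in females from 268 and 144 to 207 and 204. Vegfa in males was then -0.64 and Emcn -0.39, both still called (adjusted p = 5.52e-05 and 0.00756).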

How the data were processed

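Cortex RNA of 24 mice was counted on both NanoString panels. The deposited values are log2 normalized counts, which the authors had scaled by 1 factor per sample, as the values show: 100% came out as whole counts, within 0.05 of a whole number, from 1 to 63094 on the Glial panel. The normalization tool is not given in the sources used here. No gene was removed. A model with 4 group means was fitted to every gene of a panel with limma 3.58.1 in R 4.3.3, errors are moderated SEs, and Benjamini-Hochberg adjustment ran over the whole panel. Ratios and panel differences were tested by exact permutation within sex (scipy 1.17.1). On simulated data the Glial fit for genotype over both sexes, on 757 genes, recovered 70.1% of changes of 0.25, 94% of 0.5 and 100% of 1, and 12 of 188 calls were false. No pair of mice of a group agreed within counting noise (chi-square per degree of freedom at least 1.79).

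The members and gene lists were chosen with earlier results of these data known. Named besides the members were the 3 genes running most like each, up to 4 genes of smallest p for genotype from the VEGF, hypoxia, endothelial and mural lists, measured VEGF receptors, and 1 gene per other list. Alternatives were median centring, quantile normalization, a filter at 20 normalized counts, eBayes trend, array weights, voom on recovered counts, no sex term, each sex alone, and leaving out mice singly or female 12 with male 3. All comparisons between panels, with their alternatives, and the list counts under other scalings were added after seeing the data.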

Additional observations from a re-analysis of the deposited data

Results flagged for a closer look

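The genotype difference was tested between the sexes and differed, as female minus male on the log2 scale, by 0.37 for Vegfa, 1.25 for Flt1, 0.41 for Emcn and 0.84 for Adgrl4 on the Glial panel, and by 0.71 for Emcn on the Neuropathology panel. Among the 28 sets of 6 mice examined for a single mouse far from the rest, 3 held one, and chance marks about 1 in 20. Adgrl4 on the Glial panel was 5.60 in 5xFAD female 1190, with the other females of that group between 6.10 and 6.27. Adgrl4 was 6.89 in Plcg2+/- female 14, with the rest between 6.41 and 6.54. Vegfa on the Neuropathology panel was 8.05 in Plcg2+/- female 12, with the rest between 7.42 and 7.62.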

How the results depend on the processing

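Of 384 values recomputed under a single other setting 336 kept their direction and their side of the threshold or, for a count of called genes, stayed within 1.5 times of it, as did 1077 of 1080 refits without 1 mouse. A count can stay while its direction turns: interaction calls went from 115 above 0 and 51 below to 78 and 109 on the Glial panel and from 130 and 15 to 21 and 122 on the Neuropathology panel with centring, and to 79 and 97 and to 38 and 52 with quantile normalization. No paired analysis was possible because the genotypes and the sexes share no animal numbers; mice share numbers only between panels, where each was compared with itself. The counts of called genes that moved most were those for sex, from 615 to 315, 293 and 326 on the Glial panel and from 670 to 176, 178 and 175 on the Neuropathology panel under centring, quantile normalization and voom. Interaction counts moved from 166 to 256 with array weights on the Glial panel, and on the Neuropathology panel from 145 to 90 with quantile normalization, 95 with voom, 363 with array weights and 311 without female 12 and male 3 (111 to 321 without single mice, the highest without male 3). Without a sex term the Neuropathology genotype count fell from 544 to 332.

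Emcn over both sexes was no longer called without a sex term (-0.27, adjusted p = 0.157, on the Glial panel and -0.26, adjusted p = 0.229, on the other), nor on the Neuropathology panel with centring (-0.18) or voom (-0.17). In females quantile normalization called it on the Glial panel (-0.24) and turned it on the other (-0.081). Flt1 on the Neuropathology panel passed in females with array weights (0.34) and without the pair of mice (0.31), and in males turned to 0.16, 0.12 and 0.10 with centring, quantile normalization and voom. The Vegfa interaction was not called with centring (0.27) or quantile normalization (0.23) on the Glial panel, and was called on the Neuropathology panel with array weights (0.51), without the pair (0.48) and without male 3 (0.34 to 0.57 over single mice). The Emcn interaction missed with quantile normalization (0.20) on the Glial panel and with centring (0.42) and quantile normalization (0.45) on the other. Sex differences on the Neuropathology panel missed for Vegfa with centring (-0.16), quantile normalization (-0.17) and voom (-0.15), and for Emcn with voom (-0.24). Leaving out single mice moved Adgrl4 over both sexes between -0.0094 and 0.090.

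In females alone Vegfa minus Flt1 (-0.79) and Flt1 minus Emcn (0.60) passed, Vegfa minus Emcn (-0.19) missed and Flt1 minus Adgrl4 turned (0.077). In males alone Vegfa minus Flt1 (0.082) and Flt1 minus Emcn (-0.23) turned, and Vegfa minus Emcn (-0.15), Vegfa minus Adgrl4 (-0.24) and Emcn minus Adgrl4 (-0.095) missed. Without the pair Vegfa minus Flt1 passed (-0.43) and its correlation missed (-0.56). Centring turned the correlation of Flt1 with Emcn (-0.065) and the panel difference of Emcn in males (-0.083), and brought that of Flt1 past the threshold (-0.86). The causes were not tested. Depth limits Emcn and Flt1 in 5xFAD females, where 21 to 63 counts were recovered per mouse over both panels. It limits Adgrl4 there as well, with 42 to 64 counts on the Glial panel.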
